A study of Mus musculus with 3 samples.

Results

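The widest called binding regions of Zrf1 in mouse neural progenitor cells are described here. They were chosen by a measured value, the width of the called interval (end minus start), with a minimum of 1700 bp. Of 11647 Zrf1 peaks in the list, 533 met it (4.58%). The series holds 3 chromatin immunoprecipitation sequencing libraries from cultured progenitors. Zrf1 was precipitated in 1, Ring1B in 1, and a rabbit IgG was used in the third. All 3 came from progenitors differentiated in culture from E14TG2a, a mouse embryonic stem cell line, and kept in N2 medium with EGF and FGF2. The antibodies to Zrf1 and Ring1B were made in the laboratory of the submitters. No genotype or treatment sets the libraries apart, and each antibody has a single library. The deposited lists hold positions only, so read depth is unknown and no peak has a height or score.

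Zrf1, the product of Dnajc2, is a chaperone-related protein that binds histone H2A carrying the ubiquitin mark. Ring1B, the product of Rnf2, is the catalytic subunit of a Polycomb complex and attaches this ubiquitin at developmental genes which are kept silent. A peak caller reports 1 interval for each stretch of genome where immunoprecipitated fragments exceed the background, so a wide interval is a long stretch, or several close sites, called as 1 region. Mouse chromosomes have the centromere close to 1 tip, where long arrays of satellite repeats lie, and telomere repeats at both tips. The distal tip of the X chromosome carries the pseudoautosomal region, the part that pairs with the Y chromosome. Coordinates are those deposited, on build mm9. Genes, gene starts and repeats were not placed at them, because the reference tables at hand are for another build, GRCm38.p6, and no sequence is shown for the same reason.

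The wide peaks made up 4.58% of the list and 11.9% of all sequence under Zrf1 peaks, 1.26 of 10.6 Mb. The median member measured 2029 bp, with quartiles of 1835 and 2472 bp, against a median of 796 bp over all Zrf1 peaks, a gap fixed by the way they were chosen. Most were only moderately wide: 473 lay below 3000 bp and 60 at or above it. The widest measured 12690 bp. The minimum cut through a continuous range. The 3 narrowest members each measured 1701 bp and lay on chromosomes 13, 6 and 9, and all 3 overlapped Ring1B. The 3 peaks just under the minimum measured 1697 bp on chromosome 16, 1696 bp on chromosome 5 and 1695 bp on chromosome 6, and the first 2 of them overlapped Ring1B.

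**Figure D1:**
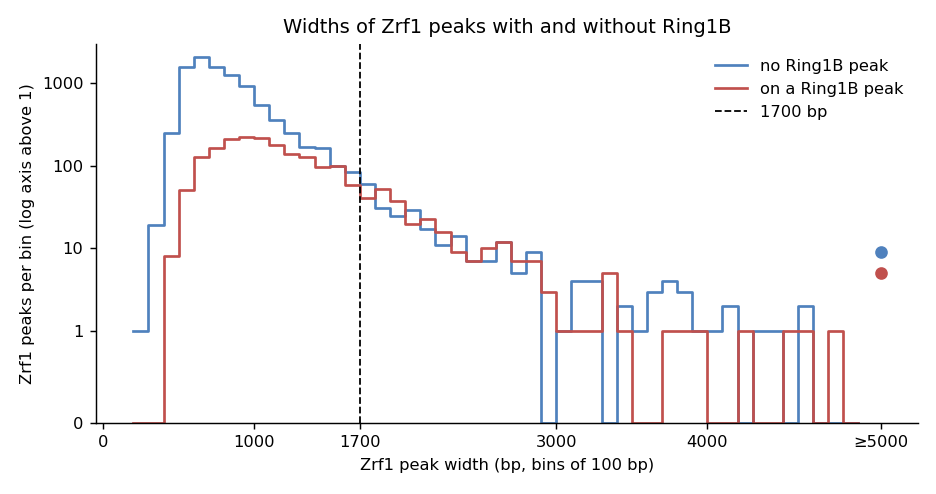
Number of Zrf1 peaks (vertical axis, log above 1) per 100 bp of width (horizontal axis) for peaks without a Ring1B peak (blue) and on one (red). Dots at the right give all peaks of at least 5000 bp, and the dashed line is the minimum of 1700 bp. Narrow peaks were mostly without Ring1B, and the lines run together from about the dashed line on.

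Close to an even split of the wide peaks lay on Ring1B. An overlap of at least 1 bp with a Ring1B peak was found for 266 of 533 (49.9%, exact 95% binomial interval 45.6 to 54.2%), while 267 had none. Over all Zrf1 peaks the same rule called 17.0%, and over the 11114 narrower Zrf1 peaks 15.4% (1710). Intervals cover counting error only, since peaks of a library are not replicates and neighbours are not independent. For that reason no p-value is given for any difference between wide and narrower peaks.

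A long interval meets another more easily than a short one, so overlap was also measured at single points. The midpoint of 243 wide peaks lay inside a Ring1B peak (45.6%, interval 41.3 to 49.9%), against a background of 16.3% over all Zrf1 peaks and 14.9% over the narrower ones. When both proteins were reduced to the central 200 bp of each peak, 135 wide peaks matched (25.3%), against 9.60% of all Zrf1 peaks. Peaks from 1500 to under 1700 bp, just outside the group, had 27.8% (96 of 345) by this rule and 44.9% (155 of 345) by the midpoint. Neither share was thus particular to the wide peaks. Within the group the share by the central 200 bp was 29.4% (73 of 248) from 1700 to under 2000 bp. From 4000 bp on, only 2 of 25 peaks matched. By this strictest rule the share was lower for wide and narrower peaks alike. In bases, Ring1B peaks covered 39.3% of the sequence under wide Zrf1 peaks and 17.3% of that under narrower ones.

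The share on Ring1B did not climb throughout the range of widths. It was 46.1% (159 of 345) for peaks from 1500 to under 1700 bp, just outside the group, and 52.8% (131 of 248) from 1700 to under 2000 bp. It stood at 49.0% (75 of 153) from 2000 to under 2500 bp and 54.2% (39 of 72) from 2500 to under 3000 bp. Above that it was lower, at 34.3% (12 of 35) from 3000 to under 4000 bp and 36.0% (9 of 25) from 4000 bp on. Pooled, 245 of 473 wide peaks below 3000 bp lay on Ring1B (51.8%, interval 47.2 to 56.4%), against 21 of 60 at or above 3000 bp (35.0%, interval 23.1 to 48.4%). The intervals of these 2 shares overlap slightly, and the difference was not tested. By the midpoint rule the values in the 2 widest bins were 28.6% (10 of 35) and 24.0% (6 of 25). The limit of 3000 bp was chosen after the values had been seen.

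**Figure D2:**
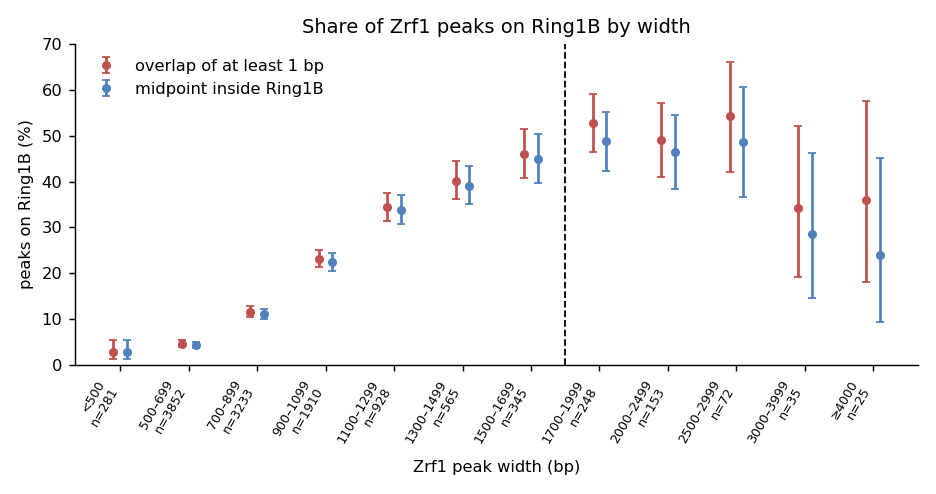
Share of Zrf1 peaks on Ring1B (vertical axis, percent) by width (horizontal axis, with the number of peaks per bin), counted by overlap of at least 1 bp (red) and by the midpoint (blue). Bars are exact 95% binomial intervals and the dashed line is the minimum of 1700 bp. The share goes from 2.85% in the narrowest bin to 54.2% from 2500 to under 3000 bp and is 34.3% and 36.0% in the 2 bins above.

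Where the 2 proteins met, Ring1B usually lay under most of the wide Zrf1 peak. At the median 91.4% of a wide peak on Ring1B was covered (quartiles 70.6 and 99.9%). Coverage of at least 90% was found in 139 of the 266 (52.3%) and coverage under 50% in 23 (8.65%). Narrower Zrf1 peaks on Ring1B were covered more fully, with a median of 98.3%, although a short interval is more easily covered. Of these 1710, 1163 (68.0%) had at least 90% covered and 59 (3.45%) under 50%. The centres of the wide peak and of the Ring1B peak that shared most bases with it lay a median of 195 bp apart. Centres lay within 500 bp in 205 pairs (77.1%), against 85.1% for narrower peaks. In 67 cases (25.2%) the wide peak lay wholly inside a Ring1B peak. In 132 (49.6%) it reached past Ring1B on a single side and in 62 (23.3%) on both sides. The remaining 5 reached from one Ring1B peak to another across a gap. Narrower Zrf1 peaks on Ring1B were wholly inside it in 768 of 1710 cases (44.9%) and reached past it on both sides in 153 (8.95%), which follows in part from their size.

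Ring1B peaks under wide Zrf1 peaks were themselves long. The widest overlapping Ring1B peak had a median width of 1995 bp (quartiles 1663 and 2655 bp). This compares with 1364 bp at narrower Zrf1 peaks and 1324 bp over the whole Ring1B list, although wide Zrf1 peaks meet long Ring1B peaks more easily. The Ring1B partner was itself at least 1700 bp wide for 193 of the 266 wide peaks (72.6%), against 500 of the 1710 narrower ones (29.2%). Widths of the 2 proteins were only loosely related across the 266 peaks, with Spearman's rho of 0.32, which describes peaks that share a library and is no test. In 139 of the 266 (52.3%) the Zrf1 peak was wider than its Ring1B partner, and in the others it was not. Among the narrower peaks it was wider in 374 of 1710 (21.9%), a difference that the choice by width favours.

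**Figure D3:**
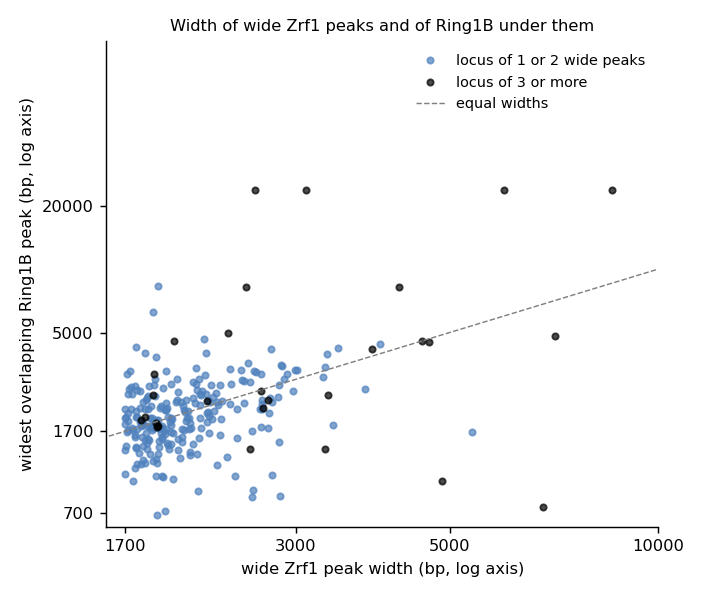
Width of each of the 266 wide Zrf1 peaks on Ring1B (horizontal axis, bp, log) and of the widest Ring1B peak it overlaps (vertical axis, bp, log). Black points belong to loci with at least 3 wide peaks, and the dashed line marks equal widths. Points lie on both sides of the line, 139 below it, and 4 black points share the Ring1B peak of 23645 bp at the top.

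Few of the Ring1B peaks, long or short, met a wide Zrf1 peak. Over the whole Ring1B list 267 of 11790 did (2.26%), a share limited by there being only 533 wide peaks. Narrower Zrf1 peaks met 1694 Ring1B peaks. Of the 117 Ring1B peaks of at least 5000 bp, 4 met a wide Zrf1 peak. Together those 4 met 8 wide peaks, of which 6 lay in 1 locus of chromosome 6. The other 2 lay on chromosomes 5 and 8. The peak of 1901 bp at chr5:75551427-75553328 met the edge of a Ring1B peak of 8355 bp over 20 bp. Most of it, 1874 bp, lay on the next Ring1B peak, of 1881 bp, with centres 17 bp apart. The peak of 1870 bp at chr8:87187809-87189679 lay wholly inside a Ring1B peak of 6239 bp, with centres 2005 bp apart. Outside the chromosome 6 locus, it was thus the only wide peak inside so long a Ring1B peak.

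The 10 widest peaks on Ring1B differed in how much of them Ring1B covered. On chromosome 6, 4 peaks of 8569, 5999, 4564 and 4223 bp in a single locus were covered by 98.5 to 100%. A peak of 3975 bp at chr11:69221927-69225902 was fully covered by a Ring1B peak of 4400 bp, with centres 106 bp apart. It was the only 1 of these 10 without another wide peak within 50 kb. At chr1:172998136-173005237 a peak of 7101 bp was covered by 67.5%, and its neighbour of 4676 bp by 96.2%. The remaining 3 lay near chromosome ends and were covered by little: 10.9% of the 6807 bp peak at chr3:3010493-3017300, 31.3% of the 5382 bp peak at chrX:166501227-166506609 and 20.3% of the 4876 bp peak at chrX:166578494-166583370. For these, a count of overlaps says Ring1B was present while most of the Zrf1 peak was free of it.

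Rank by rank, the 10 widest peaks without Ring1B were longer than the 10 widest with it. The widest of all measured 12690 bp at chr7:71220995-71233685, with the nearest Ring1B peak 10817 bp away. Another wide peak of 2802 bp lay 260 bp from it, and the pair filled 98.3% of a 15.8 kb stretch. A peak of 10131 bp at chr16:3231417-3241548 was the first peak of its chromosome in either list. A peak of 9917 bp at chr8:19923419-19933336 stood alone, with the nearest Zrf1 peak 1153 kb and the nearest Ring1B peak 972 kb away. At the start of chromosome 17, a peak of 9253 bp at chr17:3025068-3034321 was followed after 256 bp by another of 4490 bp. Ring1B was near but not under it, with a peak 1668 bp away. The other 5 were 7587 bp at chr4:3006247-3013834, 7020 bp at chrX:166609316-166616336, 6808 bp at chr1:87491251-87498059, 6590 bp at chr1:85322700-85329290 and 5465 bp at chr17:84858230-84863695, followed in rank by 4666 bp at chr5:125865805-125870471. Of these 10, only the last of chromosome 17 had Ring1B at under 1500 bp, namely 1221 bp away.

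Wide peaks without Ring1B lay at every distance from it. The median distance to the nearest Ring1B peak was 36303 bp (quartiles 10772 and 108845 bp, range 51 to 2516191 bp) over the 267. For narrower Zrf1 peaks without Ring1B it was 45943.5 bp (quartiles 16823.5 and 119784 bp). Within 50 kb a Ring1B peak was found for 421 of all 533 wide peaks (79.0%) and for 6611 of the narrower ones (59.5%). These counts include the 266 wide and 1710 narrower peaks that overlap Ring1B, so the difference in large part restates the overlap share. A wide peak with no other peak of either protein within 50 kb was the exception, at 51 of 533 (9.57%), against 21.8% of narrower peaks. Peaks on Ring1B cannot be among these, so this difference too follows in part from the overlap share. Beyond 100 kb on either side, 30 of 533 wide peaks stood alone (5.63%), against 1164 of the 11114 narrower ones. They were 8 of the 60 peaks of at least 3000 bp (13.3%) and 22 of the 473 shorter wide peaks (4.65%). These shares too depend in part on the overlap share, and the differences were not tested. Besides those on chromosomes 16, 8 and 4 named above, the 8 included a peak of 4310 bp at chr15:91736705-91741015 and one of 3944 bp at chr14:11878646-11882590.

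Wide peaks were spread over many places, with a few loci that held several. Joined at gaps of up to 50 kb, the 533 fell into 468 loci. A single wide peak made up 435 loci, 23 held 2, and 10 held 3 or more. The last 10 are called dense below for their number of wide peaks only, since Zrf1 peaks filled 11.4 to 94.3% of their spans. Those 10 loci held 52 wide peaks, of which 28 lay on Ring1B (53.8%, interval 39.5 to 67.8%). Each of the 10 had at least 1 wide peak on Ring1B, a rule more easily met by a locus with more wide peaks. Of the single loci, 219 of 435 (50.3%, interval 45.5 to 55.1%) lay on Ring1B. Of the 23 pairs, 7 had Ring1B under both peaks, 5 under 1 peak and 11 under neither. Single wide peaks make up 435 of the 533, so their Ring1B share could differ little from the 49.9% of the whole group.

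**Figure D4:**
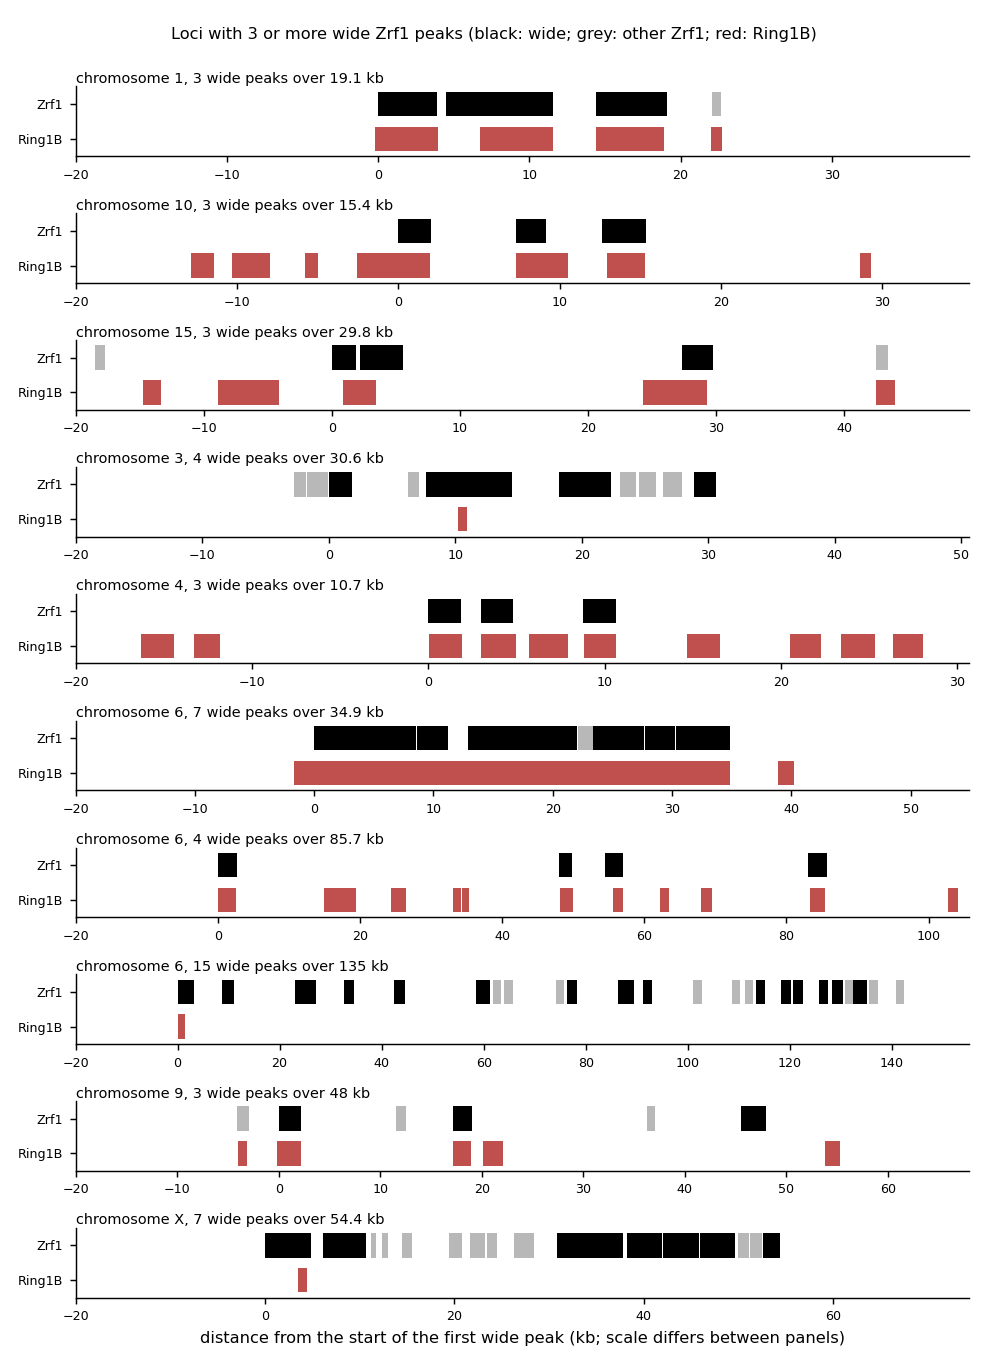
The 10 loci with at least 3 wide Zrf1 peaks, each drawn from 20 kb before to 20 kb after its wide peaks (horizontal axis, kb from the first wide peak, with a scale of its own per panel). The upper row shows Zrf1 peaks (black if wide, grey if not) and the lower row Ring1B peaks (red). Ring1B lies under all wide peaks in 6 panels and touches 1 wide peak in the panels of chromosome 3, chromosome X and the run of 15 on chromosome 6.

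The loci with 3 or more wide peaks fell into 2 sorts by their Ring1B state. In 6 of the 10 every wide peak lay on Ring1B: 3 wide peaks on chromosome 1, 3 on chromosome 4, 3 on chromosome 10, 3 on chromosome 15, and 7 and 4 in 2 loci of chromosome 6. In 3 others a single wide peak was on Ring1B, namely 1 of 15 on chromosome 6, 1 of 7 on the X chromosome and 1 of 4 on chromosome 3. The tenth, on chromosome 9, had 2 of 3. Peaks of a locus are neighbours and may share sequence, so these counts describe places and not independent sites.

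The locus with the most wide peaks, 15, lay on chromosome 6 from 114442661 to 114577789. With the peaks that follow within 15 kb it formed a run of 24 Zrf1 peaks over 142 kb. Every peak of the run was long, from 1479 to 4121 bp with a median of 1788 bp, so that the 9 others missed the minimum narrowly, at 1479 to 1692 bp. Ring1B had 1 peak in the whole stretch, of 1404 bp, under the first wide peak, and covered 42.5% of it. The midpoints of successive Zrf1 peaks stood 2 to 3 kb apart in 10 of 23 steps, 4 to 6 kb in 4, 7 to 9 kb in 3 and 9 to 11 kb in 4. The other 2 measured 15145 and 16462.5 bp. No step was shorter than 2 kb. Whether the sequence under these peaks repeats was not tested.

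Among the 10 loci with 3 or more wide peaks, Zrf1 peaks filled the largest share of a locus with 7 wide peaks on chromosome 6 from 47688679 to 47723566. Its 8 Zrf1 peaks covered 94.3% of the 34.9 kb, with gaps of 8 to 1740 bp (median 37 bp). Ring1B covered the same stretch almost without a break, 34.8 of 34.9 kb in 3 peaks of 23645, 8227 and 4540 bp. The wide peaks measured 2541 to 8569 bp. Both proteins thus formed a near-continuous block here, cut at different places in each list. A further Ring1B peak of 1318 bp followed after 4081 bp, with no Zrf1 peak on it.

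In the chromosome 1 and chromosome 4 loci each wide Zrf1 peak faced a Ring1B peak of its own. On chromosome 1, from 172993661 to 173012738, wide peaks of 3867, 7101 and 4676 bp faced Ring1B peaks of 4192, 4794 and 4517 bp. On chromosome 4, from 88421727 to 88432402, 3 wide peaks of 1887, 1821 and 1900 bp stood on Ring1B peaks of 1870, 1990 and 1795 bp and were covered by 94.5 to 99.1%. Within 20 kb on either side Ring1B had 10 peaks there, all of 1453 to 2200 bp, and 7 of them carried no wide Zrf1 peak. No other Zrf1 peak was called in that window. The Ring1B row was thus the longer, with Zrf1 at 3 of its 10 places.

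In the remaining loci with Ring1B under all or most of the wide peaks, coverage ranged widely. A looser locus of chromosome 6, from 83002859 to 83088544, held 4 Zrf1 peaks, all wide (1795 to 2693 bp) and covered by 54.3 to 98.3%, among 11 Ring1B peaks within 20 kb. On chromosome 10, from 79613759 to 79629140, 3 wide peaks of 1873 to 2739 bp were covered by 87.3 to 99.0%, among 7 Ring1B peaks. On chromosome 15, from 76034652 to 76064402, coverage was lower, at 36.2, 51.0 and 80.4%. There 2 neighbouring wide peaks shared a Ring1B peak of 2529 bp that bridged the 368 bp between them. On chromosome 9, from 107435790 to 107483780, wide peaks of 2238 and 1894 bp were covered by 98.6 and 94.5%, while the third, of 2472 bp, had no Ring1B.

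Wide peaks often had another Zrf1 peak close by. A gap of at most 5 kb to the next Zrf1 peak was found for 130 of 533 (24.4%, interval 20.8 to 28.3%), against 14.1% of all Zrf1 peaks and 13.6% of the narrower ones. Without the 52 peaks of the 10 dense loci it was 88 of 481 (18.3%, interval 14.9 to 22.0%). Peaks from 1500 to under 1700 bp, just outside the group, also had 18.3% (63 of 345, interval 14.3 to 22.7%). Those 345 include peaks in the same dense loci, which were not taken out, so the shares are not counted alike. They do not show whether the share outside these loci is particular to the wide peaks. The median gap was 17065 bp for wide and 32675.5 bp for narrower peaks. Some gaps were very short: the Zrf1 list had 61 of at most 100 bp, 13 next to a wide peak and 5 between 2 wide peaks. Joining peaks across such gaps gave 550 blocks of at least 1700 bp, of which 267 (48.5%) lay on Ring1B. It made 23 blocks that contain no member, and the longest block, of 21953 bp at chr6:47701613-47723566, was 99.4% covered by Ring1B.

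Chromosomes differed in their number of wide peaks. Chromosomes 6 and 11 had the most, 55 each, out of 611 and 949 Zrf1 peaks, followed by chromosome 8 with 51 of 801. Chromosome 6 owed 26 of its 55 to the 3 dense loci, and its wide peaks fell into 31 loci, against 49 on chromosome 11 and 48 on chromosome 8. Per Mb, chromosome 11 led with 0.451, and chromosome 18 was lowest of the autosomes with 0.0771 (7 peaks). The share on Ring1B ran from 28.6% (2 of 7) on chromosome 18 to 64.0% (16 of 25) on chromosome 15 among autosomes, where it was 50.4% over all 524. With so few peaks on most chromosomes, the order between neighbours in this range is within counting error. The Y chromosome had 2 Zrf1 peaks and none of them was wide.

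**Figure D5:**
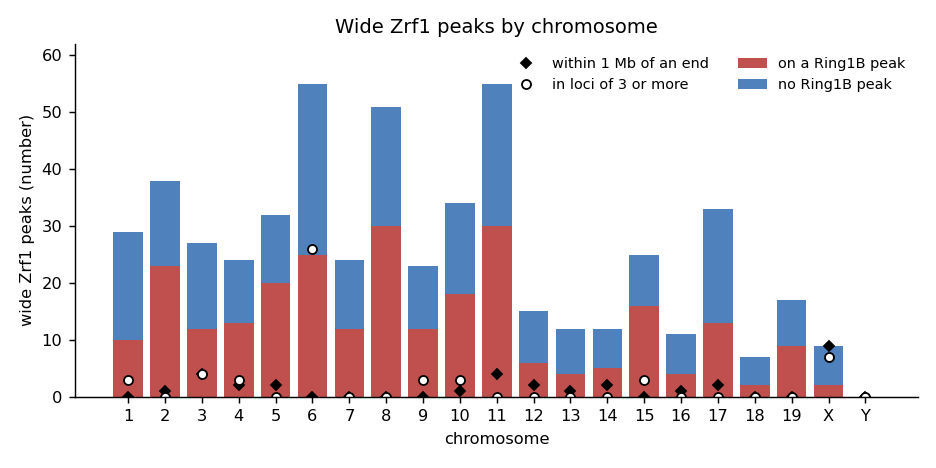
Number of wide Zrf1 peaks (vertical axis) on each chromosome (horizontal axis), on a Ring1B peak (red) or not (blue). Diamonds give the number within 1 Mb of the outermost peak of the chromosome and circles the number in loci of 3 or more. Chromosome 6 has 26 of 55 in such loci, and all 9 wide peaks of the X chromosome lie near its end.

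The X chromosome had few Zrf1 peaks but a large part of them were wide. Of its 71 Zrf1 peaks, 9 were wide (12.7%), against 4.53% on the autosomes. All 9 lay at the distal tip, in 2 loci between 166501227 and 166632874, and the last of them ended 17.4 kb before the end of the mm9 sequence. No Zrf1 peak elsewhere on the X chromosome reached 1700 bp. The proximal of the 2 loci held peaks of 5382 and 2867 bp separated by 545 bp. The distal one held 17 Zrf1 peaks in 54.4 kb, of which 7 were wide (1755 to 7020 bp), and Zrf1 peaks covered 73.9% of it. Ring1B had 1 peak in each locus, of 1686 and 988 bp, so 2 of the 9 wide peaks overlapped it (22.2%). Because 7 of the 9 belong to 1 locus, the share of wide peaks on this chromosome rests on that place.

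Chromosome ends held a small but long set of wide peaks. Within 1 Mb of the outermost peak of either list lay 31 of 533 wide peaks (5.82%, interval 3.99 to 8.15%), against 2.30% of all Zrf1 peaks and 2.13% of narrower ones. Counted as 1 peak per locus it was 20 of 468 (4.27%, interval 2.63 to 6.52%). On the centromere side there were 20, on 10 chromosomes, and on the distal side 11, on 3 chromosomes, 9 of the 11 being those of the X chromosome. The median width was 2883 bp near the ends and 2022 bp elsewhere. Of the 60 peaks of at least 3000 bp, 15 lay near an end, against 16 of 473 below 3000 bp. Peaks from 1500 to under 1700 bp, just outside the group, had 2.90% near an end (10 of 345). The share was 3.63% (9 of 248) from 1700 to under 2000 bp and 1.96% (3 of 153) from 2000 to under 2500 bp. From 2500 to under 3000 bp it was 5.56% (4 of 72). The higher share of the whole group thus rested largely on its peaks of at least 3000 bp. Ring1B was under 6 of the 31 (19.4%) and under 260 of the 502 wide peaks away from the ends (51.8%). Over narrower peaks the shares on Ring1B were 25.3% near the ends and 15.2% elsewhere. These sets are small, neighbours in them are not independent, and the differences were not tested.

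The centromere-side peaks lay at the very start of the assembled sequence on several chromosomes. No Zrf1 peak outside the Y chromosome started before 3000056, and 7 wide peaks started within about 50 kb of that position. On chromosome 3 the list opened with 10 Zrf1 peaks between 3000056 and 3033391, 4 of them wide at 1881, 6807, 4113 and 1774 bp. A Ring1B peak of 742 bp was the only 1 there, inside the 6807 bp peak. The wide peaks at the start of chromosomes 4, 16 and 17 were described above, and none of these 4 overlapped Ring1B. On the other 6 chromosomes with wide peaks on this side (5, 10, 11, 12, 13 and 14) they measured 1714 to 3287 bp and lay 3.70 to 984 kb from the first peak. Chromosome 11 had 4 of them, 2 fully covered by Ring1B. Mapping of reads to repeats at these places, and the IgG library there, were not analysed here.

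The same limit of 3000 bp, chosen after the values had been seen, was applied away from the chromosome ends and the 10 dense loci. There, 226 of 428 wide peaks below 3000 bp lay on Ring1B (52.8%) and 8 of 33 at or above 3000 bp (24.2%). The second share rests on 33 peaks, and the difference was not tested. In all, 27 of the 60 longest peaks lay near an end or in a dense locus, against 45 of the 473 shorter ones. Among the 10 widest, 5 lay near an end and 3 were on Ring1B. Among the 100 widest, 17 lay near an end, 25 in dense loci and 44 on Ring1B. Whether sequence content or mapping plays a part in the long peaks was not tested.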

How the data were processed

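The authors deposited 1 peak list for Zrf1 and 1 for Ring1B. A list was tied to a library by the antibody it names. The 3 columns are chromosome, start and end in bp, with no score or header. Per the submitters' processing notes, reads were aligned with Bowtie 0.12.7 and peaks called with MACS 1.4.2 on mm9. Nothing is stated there of the threshold, the control or later filters, on which widths depend. Whether starts count from 0 or 1 is not stated. Peaks of a single library were compared by position only, so no replicate error exists and no significance test was run.

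Width was end minus start. An overlap was at least 1 bp. Loci joined wide peaks at gaps of up to 50 kb. A chromosome end was the 1 Mb next to the outermost peak in the pooled lists. Intervals are exact (Clopper-Pearson) at 95%. Named peaks were the 10 widest with and without Ring1B, loci of 3 or more, the widest near ends, those nearest the minimum and those on Ring1B peaks of at least 5000 bp. Members, rules and limits were chosen with earlier results of these data known. Planned gene-start and repeat measures, and gene lists, were not run for lack of an mm9 reference. Overlap code was tested on simulated data and against bedtools 2.31.1. Chromosome lengths came from GenomeInfoDb 1.38.1. Python 3.11.15, pandas 2.3.3, SciPy 1.17.1 and matplotlib 3.10.9 were used.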

Additional observations from a re-analysis of the deposited data

How the results depend on the processing

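The share of wide peaks on Ring1B (49.9%) stayed inside its own interval in 9 of 11 alternatives, which reuse the same peak lists. It was 43.0% with a reciprocal overlap of 50% and 25.3% with the central 200 bp of both peaks, where a match is harder by construction; narrower peaks had 11.8 and 8.84% under the same rules. The 468 loci became 755 with a minimum width of 1500 bp and 252 with 2000 bp, since more or fewer peaks entered, and stayed within 1.5 times with joining gaps of 10 and 200 kb and after joining peaks at gaps up to 100 bp. The share near a chromosome end (5.82%) was 16.5% within 5 Mb, a larger window, where narrower peaks had 13.1%. It kept inside its interval in the 5 others. The share with a Zrf1 neighbour within 5 kb (24.4%) was 14.6% at 2 kb and 39.0% at 10 kb (narrower peaks 6.47 and 23.2%), and 18.3% without loci of 3 or more wide peaks. The midpoint rule, joining at 100 bp and leaving out dense loci were chosen after seeing the data. Gene-start and repeat measures were not run. Depth is unknown, so the lack of a peak does not show lack of binding.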
